A study of Mus musculus with 6 samples.

Results

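The connexin and pannexin genes that are discussed most often in bone were followed through total RNA of mouse osteoblastic cells with and without Fam102a. The 7 genes were selected by name: Gja1, Gja4, Gjb2, Gjb6, Gjc1, Panx1 and Panx3, out of 53715 genes listed for every library. The tables also list 16 other connexin and pannexin genes, which served for comparison. Calvarial cells of newborn C57BL/6J mice were kept in osteogenic medium for 7 days, and 3 wild-type (WT) libraries were compared with 3 Fam102a knockout (KO) libraries. The knockout mice came from a cross of Actb-Cre mice with mice whose Fam102a exons 2 and 3 lie between loxP sites, so the gene is missing from all cells of the animal and not from osteoblasts alone. Cells isolated from calvaria hold several cell types, and the labels do not say whether the libraries came from separate cultures or litters. The p-values below therefore measure only the spread between these samples, which may be technical.

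Connexins are membrane proteins that assemble into hexameric hemichannels, and hemichannels of neighbouring cells dock into gap junctions that pass ions and small metabolites. Pannexins form related large-pore channels that mostly work without docking and release ATP, which purinergic receptors on nearby cells then sense. In bone, connexin 43 from Gja1 couples osteoblasts and osteocytes, and pannexin 3 from Panx3 is a channel of differentiating osteoblasts and chondrocytes that also acts in the endoplasmic reticulum membrane.

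Gene reads, which hold exon and intron reads, totalled 12212169 to 21210150 per library. CPM are reads scaled to a common library total after TMM normalization. In these units 1 read stood for 0.0494 CPM (KO replicate 2) to 0.0848 CPM (WT replicate 1). Introns held 52.2% to 54.5% of the gene reads in WT and 45.8% to 53.2% in KO. Rn7s1, a 7S RNA gene, took 15.8% to 16.6% of the reads in WT and 9.66% to 13.3% in KO, without overlap. Fam102a itself had 170, 249 and 244 gene reads in WT and 185, 260 and 257 in KO. Its exon reads were 124, 206 and 207 in WT and 123, 174 and 157 in KO. For each replicate number KO thus had more gene reads but fewer exon reads than WT, before scaling to depth. Neither count separates the 2 deleted exons from the rest of the gene, so these values check no label. Col1a1, the main bone collagen, had 5737 to 8629 CPM over the 6 libraries, whereas the late osteoblast marker Bglap was at 0 reads in 4 libraries and had 53 reads in KO replicate 2, with 37.3% of its reads placed uniquely among near-identical copies. Ibsp, another late marker, had 5.19 CPM in KO replicate 2 and 0.214 to 1.44 CPM in the other libraries. Replicates 2 and 3 of both genotypes carry the name of the same sequencing run, and replicate 1 does not.

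The 7 genes lie on 5 chromosomes of mm10. Gja1 (ENSMUSG00000050953) is on chromosome 10 from 56377330 to 56402513, Gja4 (ENSMUSG00000050234) on chromosome 4 from 127311421 to 127314039 and Gjc1 (ENSMUSG00000034520) on chromosome 11 from 102799579 to 102819700. Gjb2 (ENSMUSG00000046352), from 57098600 to 57104702, and Gjb6 (ENSMUSG00000040055), from 57123303 to 57133611, are on chromosome 14 with 18600 bases between them, where 1 other gene starts. Panx1 (ENSMUSG00000031934), from 15002128 to 15045478, and Panx3 (ENSMUSG00000011118), from 37659902 to 37669235, are both on chromosome 9 but 22614423 bases apart.

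RefSeq promoter sequences (GRCm38.p6) matched 5 of the 7 genes, all but Panx3 and Gjc1. The 250 bases before the start are shown for 4 of them. These are Gja1, the most abundant member, the nearby pair Gjb2 and Gjb6, and the widely expressed pannexin Panx1. Capitals mark matches to 4 motifs searched on both strands: the GC box GGGCGG, the AP-1 site TGANTCA, the Runx core TGTGGT and the TATA box TATAAA. The Gja1 window is chr10:56377050-56377299 on the plus strand, and the others are on the minus strand at chr14:57104703-57104952 for Gjb2, chr14:57133612-57133861 for Gjb6 and chr9:15045479-15045728 for Panx1.
Gja1: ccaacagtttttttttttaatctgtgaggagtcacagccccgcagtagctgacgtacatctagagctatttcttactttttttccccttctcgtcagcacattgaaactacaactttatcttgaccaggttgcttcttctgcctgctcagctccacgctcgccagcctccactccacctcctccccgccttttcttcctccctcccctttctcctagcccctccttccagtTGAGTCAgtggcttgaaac
Gjb2: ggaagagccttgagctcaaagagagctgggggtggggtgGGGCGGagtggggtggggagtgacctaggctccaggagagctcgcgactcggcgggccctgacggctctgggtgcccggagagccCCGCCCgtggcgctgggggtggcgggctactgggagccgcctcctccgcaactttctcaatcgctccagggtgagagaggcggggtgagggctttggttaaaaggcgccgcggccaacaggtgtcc
Gjb6: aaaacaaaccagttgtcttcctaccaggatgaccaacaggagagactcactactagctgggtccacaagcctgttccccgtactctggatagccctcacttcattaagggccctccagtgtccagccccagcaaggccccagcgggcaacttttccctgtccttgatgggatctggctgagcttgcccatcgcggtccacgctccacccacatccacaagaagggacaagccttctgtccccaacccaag
Panx1: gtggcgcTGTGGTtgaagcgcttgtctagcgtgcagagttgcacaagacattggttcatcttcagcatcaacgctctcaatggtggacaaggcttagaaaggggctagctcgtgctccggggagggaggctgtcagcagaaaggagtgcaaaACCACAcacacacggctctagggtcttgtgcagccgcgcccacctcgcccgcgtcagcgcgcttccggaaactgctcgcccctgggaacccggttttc
The Gja1 window held 1 AP-1 match, TGAGTCA, beginning 19 bases before the RefSeq start, and 6.75% of 32851 mouse promoter windows of this length held this motif. That window ends at 56377299, short of the Gja1 gene start of 56377330 given above, so the RefSeq start used here is a different one. Gjb2 had 2 GC boxes, at 211 and 126 bases, a motif present in 32.7% of the windows. Gja4, whose window is not shown, had 1 GC box, at 79 bases. Panx1 had 2 Runx cores, at 243 and 98 bases, a motif present in 14.05% of the windows. Without a Panx3 window, the pannexins cannot be compared in this respect. The Gjb6 window held none of the 4 motifs, and its base composition was 56.8% G and C against 69.2% for Gjb2. A match describes the letters and not a bound site.

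Levels between genes were compared as RPKM, exon reads scaled to exon length and to the gene reads of the library, and values are given in the order of replicates 1, 2 and 3. Gja1 was the most abundant of the 7 genes, with 7.35, 8.30 and 12.5 RPKM in WT and 10.4, 4.23 and 19.2 RPKM in KO. Its lowest library was above the highest library of each other member, and 14.5% of the 16391 genes tested had a higher mean RPKM. Panx3 came next in mean RPKM over the 6 libraries (1.29), followed by Panx1 (1.15), Gjc1 (0.905), Gjb6 (0.819), Gjb2 (0.553) and Gja4 (0.255). From Panx3 downward, the ranges of neighbours in this order overlapped over the 6 libraries. Within WT alone Panx3 was above Panx1 without overlap, and within KO Panx1 was above Panx3 in every library.

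**Figure D1:**
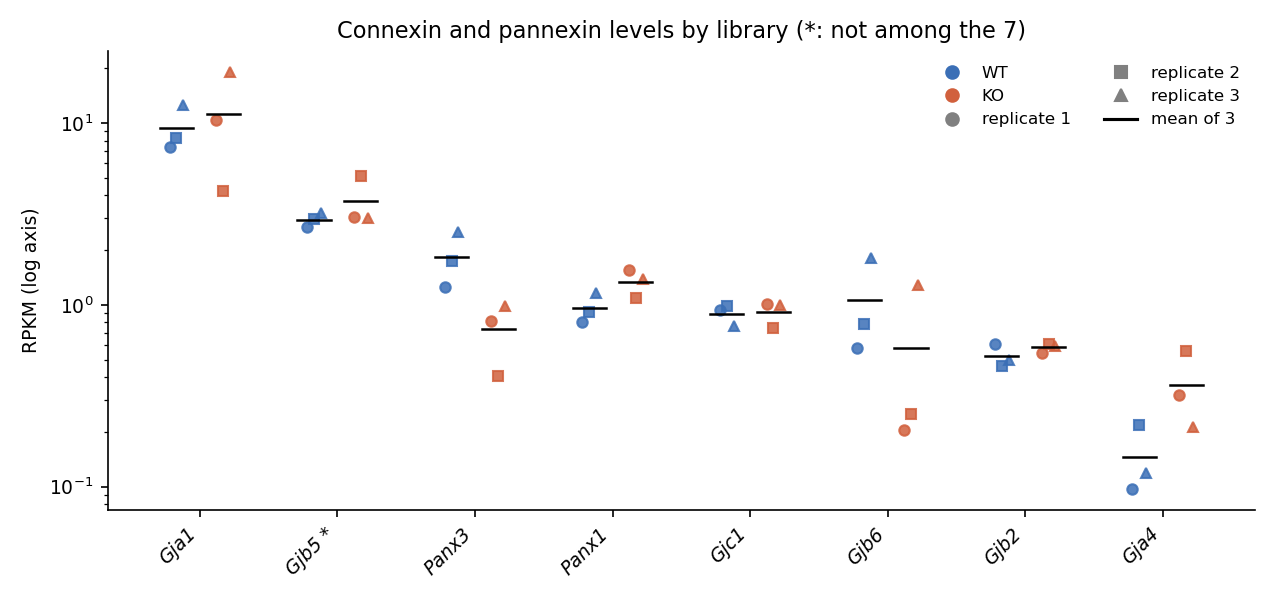
RPKM on a log axis for the 7 genes and for the skin connexin Gjb5 (asterisk), 1 point per library and a black line at the mean of 3. Gja1 lies between 4.23 and 19.2 RPKM, above the other members in each library, and the Panx3 points of KO lie below those of WT.

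The make-up of the connexin and pannexin RNA was read as the share of each gene in the summed RPKM of all 23 genes. Gja1 made up 38.0%, 43.2% and 47.3% in WT and 45.5%, 22.5% and 60.0% in KO. KO replicates 2 and 3 were the lowest and the highest of the 6 libraries, so the KO values lay on both sides of WT. Gjb5, a connexin known from keratinocytes, held 13.8%, 15.4% and 12.1% in WT and 13.4%, 27.1% and 9.42% in KO. It was above Gja1 in KO replicate 2, the library with the lowest Gja1 share, and below it in the other 5 libraries. The 7 genes together held 60.1%, 69.8% and 73.4% in WT and 65.0%, 42.0% and 77.1% in KO. Of 14 epidermal and epithelial markers, 5 were expressed enough to be tested. Of these 1, the basal keratinocyte factor gene Trp63, was lower in KO at an unadjusted p under 0.05 (log2 fold change −0.95, edgeR adjusted p = 0.405), against 3.12% of all tested genes. The list summed to 13.3 to 22.8 CPM in WT and 11.1 to 15.2 CPM in KO.

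Panx3 made up 6.50%, 9.03% and 9.57% of the family in WT and 3.54%, 2.16% and 3.07% in KO. The genotypes did not overlap, with 8.36% ± 1.64 (SD, n = 3) in WT and 2.93% ± 0.703 (SD, n = 3) in KO (2-sided exact permutation test, p = 0.1). With 3 libraries against 3, 0.1 is the smallest p this test can give.

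**Figure D2:**
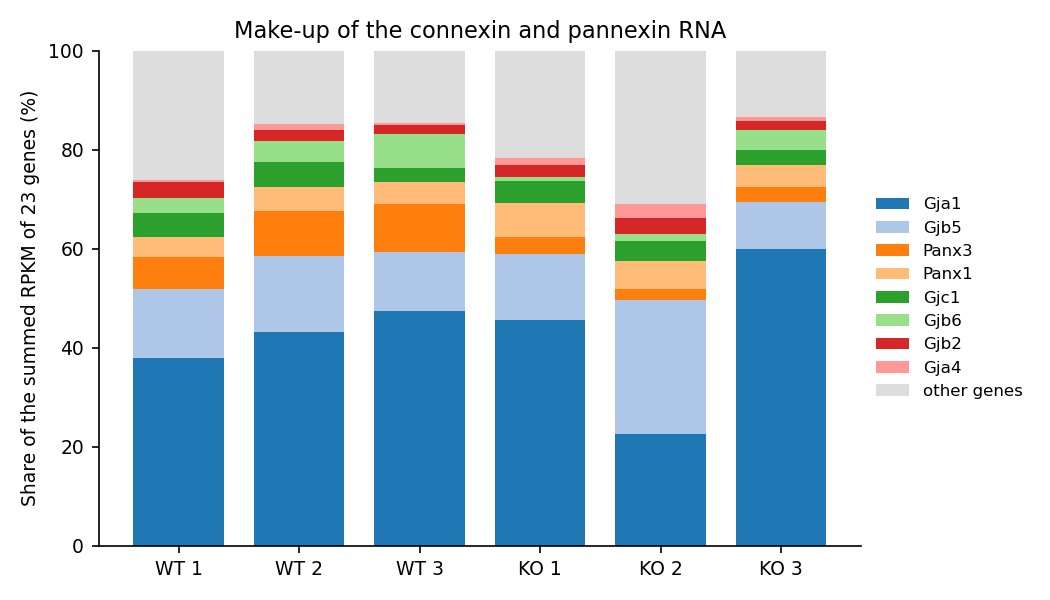
Share of each gene in the summed RPKM of 23 connexin and pannexin genes (%), 1 stacked bar per library. Gja1 ranges from 22.5% in KO replicate 2 to 60.0% in KO replicate 3, and Panx3 is between 6.50% and 9.57% in WT and between 2.16% and 3.54% in KO.

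The comparison asked whether these channel genes differ between the genotypes. Of the 6 tested members 1, Panx3, was lower in KO at an unadjusted p under 0.05 in edgeR (quasi-likelihood test, gene reads), against 6.05% of all tested genes, 3.12% being lower and 2.92% higher in KO. No member passed an adjusted p of 0.05 in this test, which 8 genes (0.0488%) did, 3 higher (0.0183%) and 5 lower (0.0305%), while 991 genes had an unadjusted p under 0.05. DESeq2 called 116 genes at the same adjusted threshold, and none of the 7 was among them. Gja4 was too low to be tested.

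Panx3, the pannexin of differentiating osteoblasts and chondrocytes, had 44, 94 and 155 gene reads in WT and 31, 27 and 55 in KO. This is 3.73, 5.33 and 8.03 CPM against 2.23, 1.33 and 2.95 CPM, and the highest KO library was below the lowest WT library. Libraries were apart in this way for 11.1% of all tested genes, 5.61% being lower and 5.48% higher in KO. The log2 fold change was −1.40 (standard error 0.373), or 0.378 of the WT level, with an adjusted p of 0.483 in edgeR after Benjamini-Hochberg correction. Panx3 ranked 155 among 16391 genes by p. It was lower in KO for each of the 3 replicate numbers, by −0.74, −2.0 and −1.44 on the log2 scale. Exon reads alone, at 41, 88 and 135 in WT and 28, 23 and 44 in KO, gave a log2 fold change of −1.50 (standard error 0.344, edgeR adjusted p = 0.269). In bulk RNA, fewer cells that make Panx3 and less Panx3 RNA per cell cannot be told apart.

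Markers of other cells moved between the genotypes as well. At the unadjusted threshold of 0.05, 5 of 12 tested chondrocyte markers were lower and 1 was higher. Over all tested genes 3.12% were lower and 2.92% higher. The chondrocyte list summed to 3016 to 3561 CPM in WT and 1804 to 3079 CPM in KO. Comp, a cartilage matrix protein, had 293, 290.2 and 274 CPM in WT and 82.5, 126 and 93.0 CPM in KO (edgeR adjusted p = 0.0260). Hapln1, Col9a2 and Sox6 had log2 fold changes of −0.92, −0.85 and −1.10. Of 10 tested osteoblast markers 4 were lower and 0 higher at this threshold, and 3 of the 10 had log2 fold changes above 0. This list summed to 14836.5 to 18335.1 CPM in WT and 15981.4 to 16934.8 CPM in KO, with overlap. Among the 4 lower genes was Sp7, the transcription factor Osterix, at 14.8, 17.4 and 20.7 CPM in WT and 7.19, 10.4 and 9.17 CPM in KO (log2 fold change −0.98, edgeR adjusted p = 0.193). Alpl, tissue-nonspecific alkaline phosphatase, had a log2 fold change of −1.67 (edgeR adjusted p = 0.161). The transcription factor gene Runx2 had −0.40 (edgeR adjusted p = 0.603). Of 6 tested osteocyte markers 1, Fbln7, was lower (log2 fold change −1.62, edgeR adjusted p = 0.0194), and the other 5 had values above 0 that did not pass. The median of this list was 0.24, and it summed to 393 to 479 CPM in WT and 438 to 603 CPM in KO. Their part in the Panx3 difference was not tested.

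Panx1, a widely expressed pannexin that releases ATP, did not follow Panx3. It had 75, 139 and 175 gene reads in WT and 143, 153 and 166 in KO, which is 6.36, 7.88 and 9.06 CPM against 10.3, 7.56 and 8.90 CPM. The genotypes overlapped, and the log2 fold change was 0.19 (standard error 0.194, edgeR adjusted p = 1.00). The ratio of Panx3 to Panx1 in RPKM was 1.57, 1.89 and 2.18 in WT and 0.522, 0.373 and 0.704 in KO. Panx3 was thus the more abundant pannexin per length in each WT library and the less abundant in each KO library. The mean log2 ratio was different by −1.85 in KO (2-sided exact permutation test, p = 0.1, adjusted p = 0.3 over 3 ratios).

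The reads of Panx1 also split differently between exons and introns. Introns held 21.3%, 24.5% and 20% of its gene reads in WT and 15.4%, 9.15% and 15.1% in KO, without overlap (2-sided exact permutation test, p = 0.1). Panx1 was the only member without overlap in this share, a pattern found in 7.53% of 15830 genes, 3.69% with a lower and 3.84% with a higher share in KO. The intron share of the whole library was also lower in KO replicates 1 and 3 than in each WT library, and its part in the Panx1 split was not tested. On exon reads, at 59, 105 and 140 in WT and 121, 139 and 141 in KO, Panx1 had a log2 fold change of 0.34 (standard error 0.185) and did not pass the unadjusted threshold (edgeR adjusted p = 0.844), which 6.80% of genes did on exon reads, 3.40% lower in KO. Introns held 27.2% of the reads of Gjc1, 11.6% of Panx3 and 3.42% of Gja1 over all libraries.

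**Figure D3:**
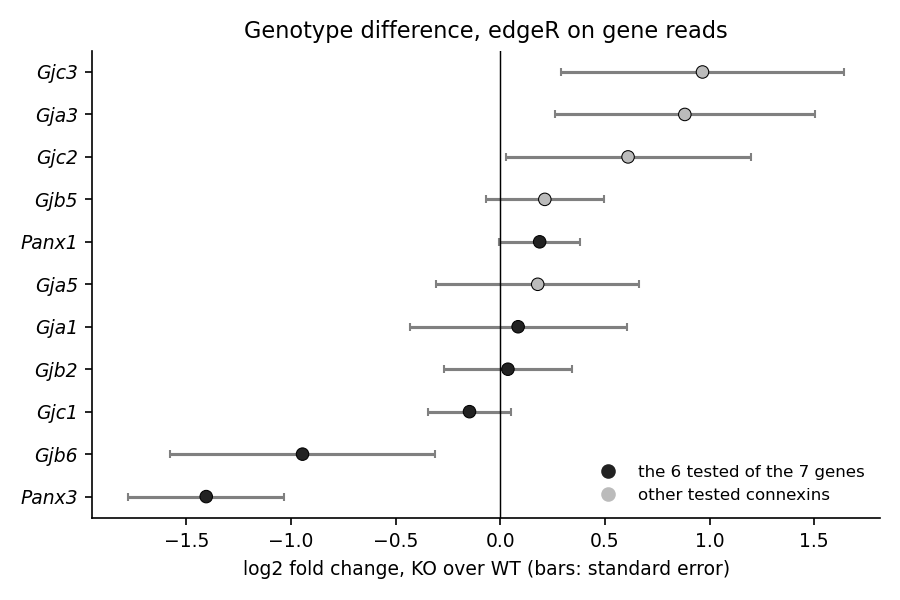
Log2 fold change of KO over WT with its standard error for the 6 tested genes (black) and 5 of the other tested connexins (grey), from edgeR on gene reads of 3 WT and 3 KO libraries. Panx3 at −1.40 is farthest from 0 and Gjb6 at −0.94 has the next lowest value, and the other connexins shown are above 0 without passing the test.

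Gja1 encodes connexin 43, the main gap junction protein of osteoblasts. It had 708, 1236 and 1953 gene reads in WT and 1049, 713 and 2519 in KO, or 60.1, 70.1 and 101 CPM against 75.4, 35.2 and 135 CPM. The lowest and the highest libraries were both KO and differed 3.84-fold, and the genotypes overlapped. The means were 77.1 ± 21.4 CPM (SD, n = 3) in WT and 81.9 ± 50.2 CPM (SD, n = 3) in KO, with a log2 fold change of 0.09 (standard error 0.519, edgeR adjusted p = 1.00). The sign rested on single libraries, since the log2 fold change was 0.45 without KO replicate 2 and −0.49 without KO replicate 3. KO replicate 2, with the least Gja1, was also the library with the most Ibsp and Bglap.

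Gjc1 encodes connexin 45, a gap junction protein of osteoblasts as well as of heart and smooth muscle. It had 7.64, 6.86 and 5.28 CPM in WT and 6.18, 5.83 and 5.79 CPM in KO, the narrowest KO spread among the members in relation to its level. The log2 fold change was −0.15 (standard error 0.196, edgeR adjusted p = 1.00). The ratio of Gja1 to Gjc1 in RPKM was 7.87, 8.38 and 16.5 in WT and 10.4, 5.68 and 19.2 in KO. The genotypes overlapped, with a difference of 0.02 on the log2 scale (2-sided exact permutation test, p = 1.0, adjusted p = 1.0 over 3 ratios). Of 13 tested smooth muscle and pericyte markers 8 were higher in KO at an unadjusted p under 0.05, against 2.92% of all tested genes. Their sums overlapped at 2218 to 2882 CPM in WT and 2246 to 3330 CPM in KO. Those with the smallest p were the pericyte channel gene Kcnj8 (log2 fold change 2.09), the receptor gene Notch3 (0.53), the smooth muscle myosin gene Myh11 (0.88) and the pericyte gene Rgs5 (2.05), with edgeR adjusted p from 0.260 to 0.742 for the first 3 and 0.761 for Rgs5.

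Gja4 encodes connexin 37, a gap junction protein of arterial endothelium that mouse osteoclasts also make. It had 4, 8 and 4 gene reads in WT and 7, 20 and 6 in KO, and the genotypes overlapped. In the fit without a filter on low counts its log2 fold change was 0.86 (standard error 0.658, edgeR adjusted p = 0.873). None of 10 tested endothelial markers passed an unadjusted p of 0.05 in edgeR's test, and the list summed to 55.9 to 91.1 CPM in WT and 22.6 to 109.6 CPM in KO. Pecam1, an adhesion protein of endothelium that myeloid cells also carry, was at 0.790 CPM in KO replicate 2, the library with the most Gja4 reads, and between 15.9 and 77.4 CPM elsewhere. The next most abundant endothelial markers, Flt1, Tek and Erg, had log2 fold changes of 0.28, 0.34 and −0.32. Macrophage markers, a list of 14 with none past the same threshold, summed to 1056 to 2998 CPM in WT and 547 to 2398 CPM in KO. The most abundant was Lyz2, the lysozyme gene, with 626, 1726 and 665 CPM in WT and 296, 1022 and 1410 CPM in KO, followed by the complement genes C1qc, C1qb and C1qa (log2 fold changes of −0.08, 0.02 and −0.14).

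Gjb2 and Gjb6 encode connexins 26 and 30, which are partners in the cochlea and in skin. Gjb2 had 1.61, 1.36 and 1.29 CPM in WT and 1.37, 1.53 and 1.45 CPM in KO, from 19 to 31 gene reads per library. Its libraries were close together in both genotypes, and the log2 fold change was 0.04 (standard error 0.307, edgeR adjusted p = 1.00).

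Gjb6 was far more variable, with 17, 40 and 91 gene reads in WT and 9, 18 and 53 in KO. This is 1.44, 2.27 and 4.71 CPM against 0.647, 0.889 and 2.84 CPM, a 7.28-fold range over the 6 libraries. The genotypes overlapped because KO replicate 3 was above WT replicates 1 and 2. For each replicate number KO was lower than WT, by −1.16, −1.35 and −0.73 on the log2 scale. The log2 fold change was −0.94 (standard error 0.635, edgeR adjusted p = 0.996).

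The labels do not state a pairing, but in these data deviations of same-numbered libraries correlated weakly (r = 0.19 to 0.23). A fit blocked on replicate number was therefore also read, as an alternative with a pairing taken from these same data. There Gjb6 had a log2 fold change of −1.04 (standard error 0.311, edgeR adjusted p = 0.383) and Panx3 of −1.41 (standard error 0.292, edgeR adjusted p = 0.236). Under the block 2 of the 6 tested members, both lower in KO, had an unadjusted p under 0.05, against 8.33% of all tested genes and 4.25% lower. The Gjb6 value also turned on single libraries, with a log2 fold change of −0.34 without WT replicate 3 and −1.87 without KO replicate 3, where it passed the unadjusted threshold (edgeR adjusted p = 0.323). Connexin 30 is also known from astrocytes. Of 11 tested leptomeningeal and astroglial markers 2 were lower in KO at the unadjusted threshold, against 3.12% of all tested genes in the fit without the block. The list summed to 206 to 246 CPM in WT and 161 to 220.5 CPM in KO. S100b, a calcium-binding protein of glia and chondrocytes, had 22.9, 33.5 and 45.8 CPM in WT and 10.2, 14.2 and 22.3 CPM in KO. It was highest in replicate 3 of both genotypes, as were Gjb6, Gja1 and Panx3. Slc13a4, a sulfate transporter gene, had a log2 fold change of −0.65 (edgeR adjusted p = 0.769). Their part in the Gjb6 values was not tested.

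The ratio of Gjb6 to Gjb2 in RPKM was 0.943, 1.72 and 3.62 in WT and 0.374, 0.410 and 2.16 in KO. It was lower in KO for 3 of 3 replicate numbers but overlapped, with a difference of −1.38 on the log2 scale (2-sided exact permutation test, p = 0.3, adjusted p = 0.45 over 3 ratios).

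**Figure D4:**
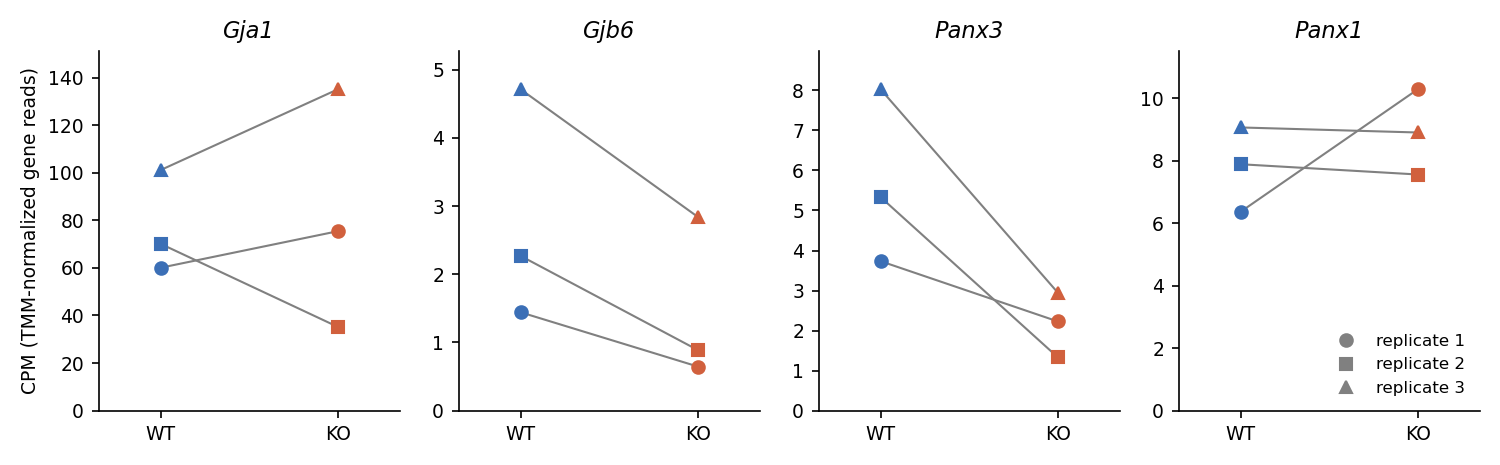
CPM of Gja1, Gjb6, Panx3 and Panx1 in WT and KO, with grey lines joining libraries of the same replicate number. All 3 lines fall for Panx3 and for Gjb6, whereas those of Gja1 and Panx1 go both ways.

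Across the 6 libraries Panx3 and Gjb6 had the highest correlation of log2 CPM among the member pairs (Pearson r = 0.83), and Panx1 and Gjb2 the lowest (r = −0.78). Gjb6 and Gja1 had r = 0.66. The libraries differ in genotype, sequencing run and depth, so these values only describe the 6 points. Among 8736 genes with a mean of at least 10 CPM, those most like Panx3 were Tdrp, Tctn1 and Sult1a1 (r = 0.99 for each over 6 libraries). Zdhhc1 and Fxyd5 were among those most like Gjb6 (r = 0.99 each), and 205 genes had an r above 0.9 with Gjb6 against 128 with Panx3. Those most like Gja1 were Scara5, Pnpt1 and Add3 (r = 0.99, 0.99 and 0.98), with 141 genes above 0.9. Itpr2, Wdr26 and Il1rap were most like Gjc1 (r from 0.98 to 0.99), Ocrl, Fign and Fam46a most like Gjb2 (r from 0.97 to 0.98), and Zfp865_1, Zmat2 and Grb2 most like Panx1 (r = 0.97 each).

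The genes that work with these channels were read from lists. Of the 16 other connexins and pannexins 7 were expressed enough to be tested, and none passed an unadjusted p of 0.05 in edgeR's test or an adjusted p of 0.05 in DESeq2. Their median log2 fold change was 0.36, beside −0.000885 over all tested genes. Gjb5 had 4.75, 5.73 and 5.90 CPM in WT and 4.96, 9.24 and 4.77 CPM in KO. Its highest library was KO replicate 2, and the genotypes overlapped. Gja5, the connexin 40 gene of arteries, had 8.57% of its exon reads placed uniquely, so its value is uncertain.

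Among 25 tested scaffold and trafficking genes, 3 passed the unadjusted threshold, 2 of them higher in KO, against 6.05% of all tested genes. Cav1, the caveolar protein that associates with connexin 43, had 202, 160.2 and 176 CPM in WT and 297, 244 and 314 CPM in KO. The genotypes did not overlap, and the log2 fold change was 0.67 (standard error 0.143, edgeR adjusted p = 0.282). Dbn1, the actin-binding drebrin that binds connexin 43, had a log2 fold change of 0.45 (edgeR adjusted p = 0.668). Cdh11, the osteoblast cadherin, had a log2 fold change of −0.47 (edgeR adjusted p = 0.816).

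Purinergic receptors and ectonucleotidases sense and degrade the released ATP. Of 22 tested, 4 passed the unadjusted threshold, 2 in each direction, against 6.05% of all tested genes. P2ry2, a receptor for ATP and UTP, had 1.95, 3.06 and 1.97 CPM in WT and 5.03, 3.90 and 4.99 CPM in KO. Its genotypes did not overlap, with a log2 fold change of 0.98 (standard error 0.275, edgeR adjusted p = 0.528). Enpp1, which makes pyrophosphate from ATP, had a log2 fold change of 0.63 (edgeR adjusted p = 0.693). Alpl, which degrades pyrophosphate, had 47.9, 52.4 and 74.6 CPM in WT and 16.4, 24.7 and 13.99 CPM in KO. Entpd6, a nucleotidase, had a log2 fold change of −0.36 (edgeR adjusted p = 0.772). Of 13 other large-pore and ATP release channel genes 2 were higher at this threshold, against 2.92% of all tested genes. These were the volume-regulated channel subunit Lrrc8d (log2 fold change 0.40, edgeR adjusted p = 0.789) and the mechanosensitive channel Piezo2 (0.83, edgeR adjusted p = 0.762).

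**Figure D5:**
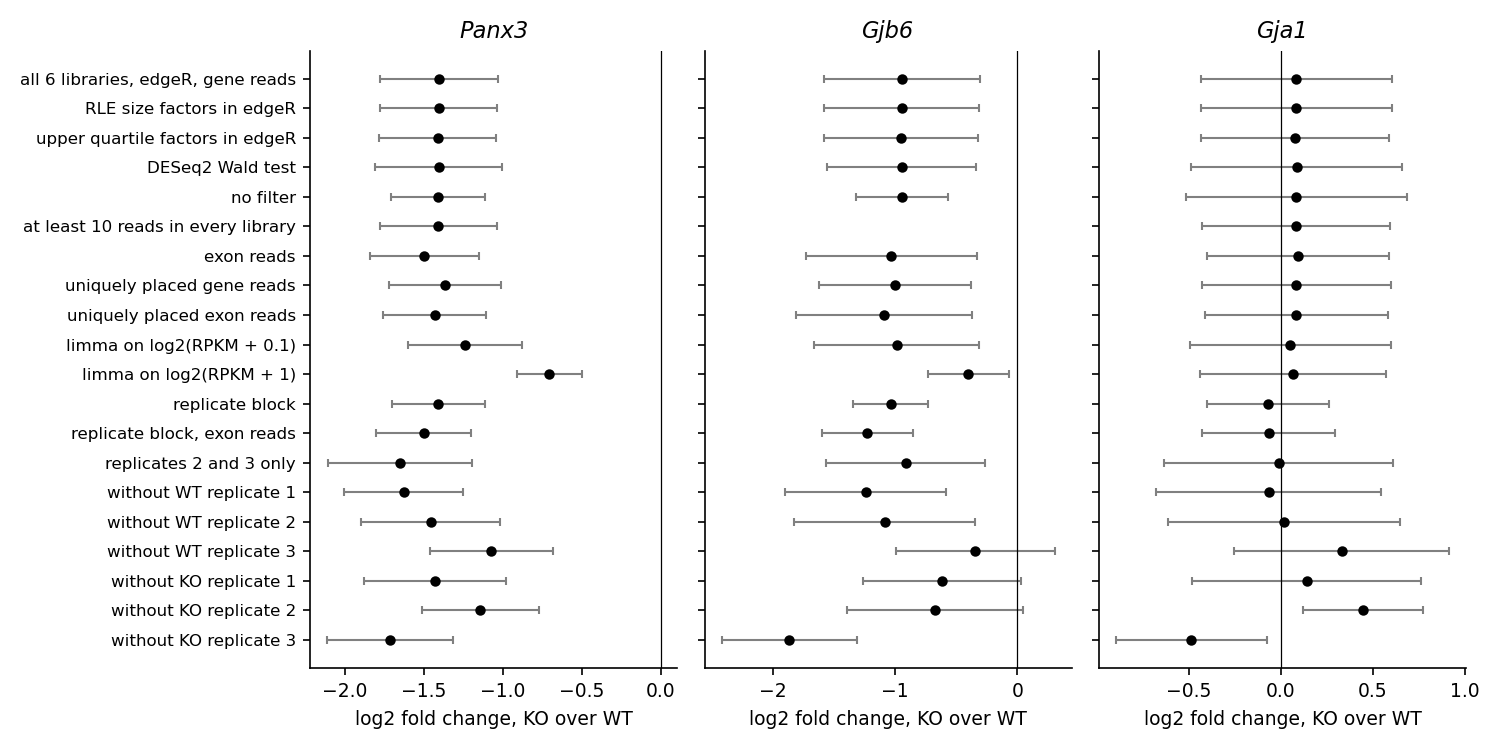
Log2 fold change of KO over WT with its standard error for Panx3, Gjb6 and Gja1 under 20 ways of counting, normalizing and choosing libraries (Gjb6 has 19). Panx3 is below 0 in each, from −1.71 to −0.70, Gjb6 is below 0 from −1.87 to −0.34, and Gja1 falls on both sides of 0.

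The direction of the Panx3 difference was the same in all 19 alternatives that were run, and its unadjusted p was under 0.05 in each of them. Its adjusted p ran from 0.000591 in edgeR without a filter on low counts to 1.00 in edgeR without WT replicate 3, and DESeq2 gave 0.0547. Between replicates 2 and 3 alone, which share a sequencing run, the log2 fold change of Panx3 was −1.65 (standard error 0.454, edgeR adjusted p = 0.790). Replicate 1, with 1 library per genotype, allows no test, and its log2 ratio was −0.74.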

How the data were processed

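Total RNA of the 3 WT and 3 KO samples was turned into cDNA (SMART-seq v4) and read on the Ion Proton platform. After mapping to mm10, the authors deposited read counts per gene (gene, exon, intron and exon-exon reads) made with CLC Genomics Workbench. For the strand, the mapping settings and the annotation version, the methods and labels were silent. The deposited RPKM of the authors rest on exon reads, exon length and the gene reads of each library. The TPM that the authors deposited were not used. Gene lengths in the deposited tables are in bases, and 53715 genes are listed.

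Gene reads were fitted with edgeR 4.0.16 in R 4.3.3 (filterByExpr with a minimum count of 10, TMM, robust quasi-likelihood test, Benjamini-Hochberg adjustment over 16391 genes, genotype as the only term). CPM are TMM-normalized. Alternatives used DESeq2 1.42.0, limma 3.58.1 on log2(RPKM + 0.1) and log2(RPKM + 1), exon or uniquely placed reads, other size factors and filters, a replicate block, and each library left out. Fits were tested on simulated data. Shares, ratios and single values were compared with 2-sided exact permutation tests over 20 assignments. RPKM are not TMM-normalized, and on log2(RPKM + 0.1) the median log2 fold change of all genes was 0.11.

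The main fit used no pairing. A block on replicate number was run as an alternative, because deviations of same-numbered libraries from their group means correlated over 14619 genes. Same-numbered pairs had r = 0.23, 0.19 and 0.20, against −0.23 to 0.05 for other pairs. Deviations within a genotype cancel out, so the values of other pairs are not independent of these. This check on the same data is the source of the pairing, and the labels leave the meaning of the numbers unstated. No 2 libraries of the same genotype agreed within sampling noise (chi-square per degree of freedom at least 29.8).

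The 7 genes and all lists were chosen with earlier results of these data known. All 7 genes are named, and from each list up to 4 genes: those with the smallest unadjusted p under 0.05, otherwise the most abundant. For each member with a mean of at least 1 CPM, 3 genes with the highest Pearson correlation of log2 CPM are named. A few genes that these rules would name are not reported here. Comp, Col1a1, Bglap, Ibsp, Pecam1 and Rn7s1 were used as checks. Counting intervals were not used, since PCR reads without molecular identifiers are not independent molecules.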

Additional observations from a re-analysis of the deposited data

How the results depend on the processing

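Over all genes, 8 passed an adjusted p of 0.05. The count was 116 with DESeq2 (48 higher, 68 lower), 340 without a filter (169 higher, 171 lower) and 42 with the replicate block on exon reads (15 higher, 27 lower). It was 0 with limma on RPKM at either pseudocount (0.1, where 1304 genes had an unadjusted p under 0.05, or 1, where 9.78% of genes did), and 0 with edgeR on replicates 2 and 3 only, where 853 did. Leaving out 1 library gave 0 to 13 genes, with 0 in edgeR without KO replicate 1 (832 at an unadjusted p under 0.05). The replicate block on gene reads gave 9. The members with an unadjusted p under 0.05 numbered 2 of 7 without a filter, against 5.79% of all tested genes. They numbered 2 of 6 with the replicate block (8.33% of all genes) and with the block on exon reads (9.55%). When 1 library was left out they numbered 1 to 2, against 3.76% to 8.98% of all genes. The count of 2 came without KO replicate 3, where the share of all genes was 8.98%. The second member was Gjb6 each time. Panx3 passed the adjusted threshold only without a filter (log2 fold change −1.41, edgeR adjusted p = 0.000591), and its leave-one-out values ran from −1.71 to −1.07. The log2 fold change of Gja1 was −0.071 with the block, −0.065 with the block on exon reads and −0.012 with replicates 2 and 3 only, and ran from −0.49 to 0.45 when 1 library was left out. That of Gjb2 ran from −0.029 to 0.12 in the same way, with −0.0074 without KO replicate 2. Gjc1 had 0.028 and 0.016 with limma at pseudocounts of 0.1 and 1, and Panx1 had −0.048 with replicates 2 and 3 only. The Panx3 share differed by −5.44 percentage points in RPKM and by −2.94 in CPM, which hold intron reads and are not scaled to exon length. The cause of the changes in fold changes and in counts of genes was not tested. The filter of at least 10 reads in every library leaves Gjb6 out, which had 9 reads in KO replicate 1, and the block changed no other call of a member. Depth limits Gja4, Gjb2 and Gjb6 most, with 49, 145 and 228 gene reads over the 6 libraries.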

Other observations

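The connexins and pannexins outside the 7 genes split into expressed and nearly silent ones. Of the 16, 7 had fewer than 15 gene reads in all 6 libraries together, and none was at 0 in total. Panx2, the pannexin known from brain, had 31 gene reads over the 6 libraries, too few to be tested. Gja3, a lens connexin that lies 40499 bases from Gjb2, had 91 gene reads, and its log2 fold change was 0.88 (standard error 0.620, edgeR adjusted p = 0.998). It was 0.29 without KO replicate 2, 0.52 without WT replicate 3 and 1.28 without KO replicate 3, where it passed an unadjusted p of 0.05 (edgeR adjusted p = 0.539). Gjc3, a connexin known from myelinating glia, had 65 gene reads and a log2 fold change of 0.97 (standard error 0.676, edgeR adjusted p = 0.998). It was 0.38 without WT replicate 3 and 1.53 without WT replicate 2.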
